A study of Mus musculus with 20 samples.

Results

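The cells described here are the 2 T-bet+ populations of CD4-CD8-TCRβ+ intraepithelial lymphocyte precursors (IELPs) in the thymus of 1 C-myc fl/fl mouse. Each of 4 libraries held 48 wells of CD122+T-bet high cells and 48 of CD122+T-bet int cells, as the well descriptions deposited with the tables assign them, so that both populations were compared within every library. A cell was kept when it had at least 2000 transcripts, counted without mitochondrial genes and spike-ins. This left 228 of 384 cells, 112 T-bet high and 116 T-bet int, out of 1413 cells that passed of 1920 in the whole series.

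The series measured single IELPs, taken here to be of 3 mice, by CEL-Seq2, a method that tags each captured mRNA with a random barcode (UMI). All mice carried the TBGR transgene, a reporter in which the fluorescent protein ZsGreen follows the gene for T-bet, and the cells were taken from thymocytes depleted of CD4+ and CD8+ cells and sorted by ZsGreen and CD122. The C-myc fl/fl mouse, 2 weeks old by its label, has loxP sites around C-myc and no Cre, so that C-myc is intact, and the mouse of genotype TBGR, 4 weeks old by its label, gave 2 libraries of T-bet high and 2 of T-bet int cells for comparison. GEO's description calls the sorted cells NK1.1+, while the study's methods call them NK1.1-. The study's text names C-myc fl/fl mice in the plural and a figure legend names a control mouse in the singular, and 1 mouse per genotype is assumed here. With 1 mouse per genotype, the p-values given here measure the spread between libraries of 1 mouse, not between mice.

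IELPs are thymocytes that survive a strong encounter with self antigen, called agonist selection, and leave the thymus to become the natural lymphocytes of the gut epithelium. CD122 is the receptor chain shared by interleukin-2 and interleukin-15. T-bet, encoded by *Tbx21*, is a T-box transcription factor that switches on CD122, interferon-γ and the cytotoxic program of NK cells and T cells. *Id2* and *Id3* are inhibitors of the E-protein transcription factors that drive early thymocyte development.

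The libraries gave between 51 and 65 passing cells each, 24 to 32 T-bet high and 26 to 33 T-bet int. Cells held a median of 6337, 6377, 6274 and 4493 transcripts in the T-bet high and 7817, 7513, 4603 and 4543 in the T-bet int cells of libraries 1 to 4, and the mean difference of -248.9 ± 1418 (SD, n = 4 libraries) was within the spread between libraries (exact sign-flip permutation test, two-sided, p = 0.875). Its sign rested on library 1 or 2, without which the mean difference was 162 or 47. Libraries 1 and 3 used the same 96 cell barcodes, as did libraries 2 and 4, always for the same population. Cells with the same barcode were hardly more alike than others across 1942 genes, with a median correlation of 0.0077 in 32 pairs against 0.0072 for libraries 1 and 3, and 0.0278 in 37 pairs against -0.0052 for libraries 2 and 4. *Gm10800*, one of the transcripts whose correlated genes the study removed, took 25.5, 30.3, 28.3 and 38.5% of the T-bet high and 19.4, 21.9, 22.9 and 35.1% of the T-bet int transcripts. It was thus higher in T-bet high cells in 4 of 4 libraries, and the transcripts outside predicted genes were fewer in T-bet high cells in 4 of 4 libraries, with a mean difference of -1373 per cell ± 809 (SD, exact two-sided sign-flip permutation test, the smallest p that 4 pairs allow). Its part in the results was not tested, and the calls of named genes that end among the cells with under 30% *Gm10800* are given with each gene.

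The values of all passing cells of a population were summed in each library, which gave 8 sums of 119878 to 298854 transcripts. A level is given in CPM, the transcripts of a gene as parts per 1000000 of its sum, after scaling the sums to each other by trimmed means, always in the order of libraries 1 to 4. A change is the log2 ratio of T-bet high to T-bet int cells within libraries, from limma with each library as a block, and a gene was called when its p-value adjusted over all 4716 genes tested was under 0.05. In such sums, fewer cells with a transcript and fewer transcripts per cell cannot be told apart.

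The 4 genes that mark T-bet high cells had the higher CPM there in every library, by a small margin for *Tbx21* and *Id2* in library 4. *Tbx21* stood at 72.8, 57.6, 71.1 and 28.1 CPM in T-bet high and 15.8, 22.8, 11.4 and 20.6 CPM in T-bet int cells, a log2 change of 1.65 ± 0.44 (SE, n = 4 libraries, limma adjusted p = 0.0165). For *Klrk1*, which encodes the activating NK receptor NKG2D, the levels were 97.0, 272, 180.4 and 65.5 against 0, 42.4, 5.68 and 6.86 CPM, with a change of 2.88 ± 0.47 (SE, n = 4 libraries, limma adjusted p = 5.33e-05). Neither gene overlapped between the populations. *Klrb1c*, which encodes NK1.1 itself, stood at 72.8, 78.5, 115 and 56.1 against 19.8, 0, 17.1 and 0 CPM and changed by 2.69 ± 0.82 (SE, n = 4 libraries, limma adjusted p = 0.0416), so that its transcript was present in T-bet high cells of all 4 libraries. *Id2* was the most abundant of the 4, at 708, 513, 481 and 299 against 225, 166, 108 and 247 CPM, with a change of 1.496 ± 0.18 (SE, n = 4 libraries, limma adjusted p = 2.54e-07). T-bet high cells had the higher value of all 4 markers in 4 of 4 libraries, with no overlap. The calls rested on few transcripts. In library 4 *Tbx21* had 3 transcripts in each population, and *Id2* had 32 in T-bet high and 36 in T-bet int cells. Their higher CPM there thus rested on the smaller T-bet high sum, 119878 against 158063 transcripts. The limma call ended for *Tbx21* without library 2, 3 or 4 (adjusted p = 0.0852, 0.0812 and 0.0933), *Klrb1c* without library 1, 2, 3 or 4 (adjusted p = 0.0798, 0.082, 0.151 and 0.147) and *Klrk1* without library 2 (adjusted p = 0.0592). Too few transcripts were left to test *Tbx21* without library 1 and *Klrb1c* in the cells with under 30% *Gm10800*.

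Per cell the same markers divided the populations in part. After every cell was thinned to 2000 transcripts, *Klrk1* was seen in 26 of 112 T-bet high and 2 of 116 T-bet int cells, *Klrb1c* in 15 and 2, *Tbx21* in 14 and 4, and *Id2* in 62 and 31. At the cells' own depth these counts were 38 and 6, 27 and 5, 31 and 14, and 71 and 49. Among 384 wells without a cell, 1 held *Klrk1*, 1 held *Id2* and none held *Tbx21* or *Klrb1c*. Most sorted T-bet high cells thus had no *Tbx21* transcript at this depth, although ZsGreen had placed them in the gate.

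Across all genes, 295 of 4716 tested were called (6.26%), 160 higher (3.39%) and 135 lower (2.86%) in T-bet high cells, and 439 (9.31%) did not overlap between the populations. The counts of called genes in each list below are to be read against these shares. The direction was the same in 4 of 4 libraries for 141 of the 160 higher genes and all but 9 of the lower ones. Predicted genes made up 22 of the higher and 2 of the lower ones. The median log2 change of all genes was -0.08, and the split depended on how the sums were scaled, with 225 higher and 83 lower genes with median-of-ratios size factors and 130 and 241 with total transcripts alone. Leaving out library 1, 2, 3 or 4 left 143, 136, 173 or 198 called genes.

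**Figure D1:**
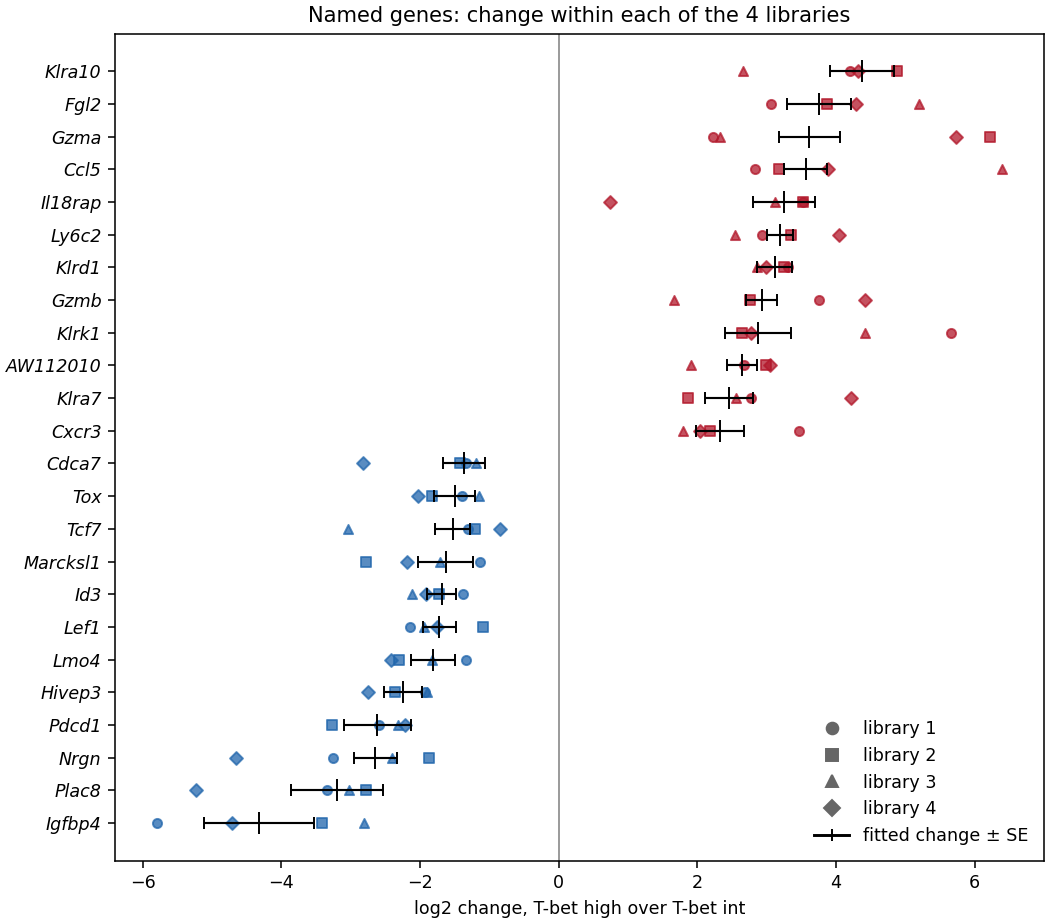
Log2 change from T-bet int to T-bet high cells (horizontal axis, black ticks and bars show the fitted change and its standard error) of the 12 largest rises and 12 largest falls, with 1 point per library. The rises run from Klra10 at 4.37 to Cxcr3 at 2.33 and the falls from Igfbp4 at -4.32 to Cdca7 at -1.37.

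Receptors of NK cells were among the largest rises, with 4 of the 12. Of 14 receptors of the Klr family outside the Ly49 group, 4 had enough transcripts to be tested, and *Klrd1*, *Klrk1* and *Klrb1c* rose. These reached the minimum for testing through their T-bet high transcripts, 242, 112 and 57 against 35, 15 and 8 in T-bet int cells. The count of rises among the tested genes thus cannot show a rise of the family. *Klrd1* encodes CD94, the chain that pairs with the NKG2 receptors, and stood at 213, 476, 349.9 and 402 CPM in T-bet high against 19.8, 48.9, 45.5 and 47.99 CPM in T-bet int cells, a log2 change of 3.12 ± 0.25 (SE, n = 4 libraries, limma adjusted p = 1.79e-11). The 4 T-bet high values lay far above the 4 T-bet int values. *Klrb1a*, the fourth, went the other way, at 29.1, 10.5, 32.8 and 9.35 against 55.4, 52.2, 114 and 47.99 CPM, with a change of -1.49 ± 0.45 (SE, n = 4 libraries, limma adjusted p = 0.0372). Among the receptors below the minimum, *Klrc1*, which encodes an NKG2 partner of CD94, had 11 transcripts in T-bet high and 0 in T-bet int cells over the 4 libraries, and *Klrc2* had 23 and 4. No call by limma remained for *Klrb1a* without library 1, 2, 3 or 4 or in the cells with under 30% *Gm10800* (adjusted p = 0.0996, 0.131, 0.366, 0.111 and 0.124).

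The Ly49 receptors, which bind MHC class I, were detected as 4 of 18 genes, and the 3 that could be tested all rose. The minimum for testing counted the transcripts of both populations together. *Klra10* had 199 in T-bet high and 13 in T-bet int cells, *Klra7* 122 and 25, and *Klra1* 123 and 42. *Klra10* and *Klra7* thus reached the minimum through the T-bet high cells. Their being tested was tied to their rise, so the count of rises cannot show a rise of the family. *Klra10* had the largest rise of all eligible genes, from 11.9, 13.1, 22.7 and 13.7 to 252, 429, 159 and 337 CPM, a change of 4.37 ± 0.46 (SE, n = 4 libraries, limma adjusted p = 1.17e-08). *Klra7* rose by 2.45 ± 0.35 (SE, limma adjusted p = 4.74e-06) and *Klra1* by 1.81 ± 0.28 (SE, limma adjusted p = 2.57e-05). *Klra4* had 4 transcripts in T-bet high and 0 in T-bet int cells. The Ly49 genes are near-identical copies of each other and reads that mapped to several places were discarded, so the split of transcripts among these 3 genes is uncertain.

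Of 14 cytotoxic and effector genes tested, 9 rose and 5 did not pass the test, with none called lower and a median log2 change of 1.62 against -0.08 for all genes. *Gzma*, a granule protease, stood at 136, 848, 639.7 and 178 CPM in T-bet high and 27.7, 9.78, 125 and 0 CPM in T-bet int cells and changed by 3.62 ± 0.43 (SE, n = 4 libraries, limma adjusted p = 2.17e-07). *Gzmb*, the granzyme that activates caspases in target cells, stood at 989.7, 1162, 924 and 1394 against 71.2, 169.6, 289.9 and 61.7 CPM, with a change of 2.93 ± 0.23 (SE, n = 4 libraries, limma adjusted p = 5.75e-12). Both granzymes were thus several times higher in each library, with no overlap. *Ccl5*, a chemokine kept ready in memory and NK cells, rose from 63.3, 91.3, 11.4 and 27.4 to 461, 838, 1192 and 449 CPM, a change of 3.56 ± 0.31 (SE, n = 4 libraries, limma adjusted p = 5.81e-11). *Fgl2*, a fibrinogen-like protein, changed by 3.76 ± 0.46 (SE, limma adjusted p = 3.05e-07), and *Ifng*, the interferon that T-bet is known for, by 3.13 ± 0.77 (SE, limma adjusted p = 0.00855) with 51 against 7 transcripts. *Nkg7*, a protein of cytotoxic granules, was the most evenly raised of these, with library values of 606, 581, 541 and 439.6 against 146, 209, 227 and 158 CPM and a change of 1.57 ± 0.16 (SE, limma adjusted p = 5.43e-09). Perforin (Prf1) was close to absent from both populations, with 1 transcript in T-bet high and 3 in T-bet int cells. In the cells with under 30% *Gm10800*, 6 of the list were called, with a median of 1.01. By limma, no call was made for *Ifng* without library 3 (adjusted p = 0.0733). It had too few transcripts to be tested without library 2 or in the cells with under 30% *Gm10800*.

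The receptors and adaptors that serve NK cells rose in 5 of 10 tested genes, with none called lower and a median of 1.02, and in 3 with a median of 0.67 in the cells with under 30% *Gm10800*. *Fcer1g*, the signalling chain of several NK receptors, stood at 403, 775, 596 and 496 against 233, 326, 279 and 213 CPM, a change of 1.09 ± 0.14 (SE, n = 4 libraries, limma adjusted p = 9.10e-07). *Hcst*, which encodes DAP10, the adaptor of NKG2D, changed by 1.80 ± 0.27 (SE, limma adjusted p = 1.24e-05), *Slamf7* by 2.66 ± 0.81 (SE, limma adjusted p = 0.0416) and *Cd7* by 0.95 ± 0.15 (SE, limma adjusted p = 4.35e-05). The fifth was *Itgal* (0.60 ± 0.17, limma adjusted p = 0.025), an integrin chain, named after its value was seen. *Il18rap*, a subunit of the receptor for interleukin-18 that lies in no list used here, rose by 3.25 ± 0.45 (SE, limma adjusted p = 2.64e-06), with library values of 112, 241, 120.3 and 46.8 against 7.91, 19.6, 11.4 and 27.4 CPM. By limma, the call was lost for *Slamf7* without library 4 (adjusted p = 0.151). *Slamf7* could not be tested without library 1, 2 or 3 or in the cells with under 30% *Gm10800*. The population values of *Il18rap* came closest to each other in library 4. *AW112010*, also in no list, rose from 75.1, 62.0, 96.6 and 41.1 to 490.0, 503, 372 and 365 CPM and changed by 2.64 ± 0.22 (SE, limma adjusted p = 1.79e-11).

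To show where T-box sequence lies near genes that moved, the promoters of the RefSeq annotation of GRCm38.p6, taken as 250 bases before to 50 after the start of a gene, were searched on both strands for 4 strings of the T-box core, which overlap each other. A promoter was found for 116 of the 160 higher and 112 of the 135 lower genes. The string GGTGTGA lay in 11 promoters of higher genes (9.48%) and 2 of lower genes (1.79%), against 3.68% of 3586 tested genes with a promoter and 4.6% of all 27025 promoters. For the shorter GTGTGA the shares in the same order were 18.1, 13.39, 12.49 and 16.42%, for the shorter GGTGTG they were 25.86, 22.32, 19.41 and 21.35%, and for the longer AGGTGTGA they were 3.45, 0.89, 0.86 and 1.48%. These matches are a description of letters in a window and no binding was measured. The promoters of 2 higher genes, *Nkg7* (chr7:43436888-43437187, plus strand) and *Klra1* (chr6:130386825-130387124, minus strand), and of 1 lower gene, *Plac8* (chr5:100572156-100572455, minus strand), are printed 5′ to 3′ because each holds GGTGTGA, in capitals, at a different place. In *Nkg7* it lies 13 bases before the start of the gene, in *Plac8* 248 bases before it, and in *Klra1* after it.
Nkg7: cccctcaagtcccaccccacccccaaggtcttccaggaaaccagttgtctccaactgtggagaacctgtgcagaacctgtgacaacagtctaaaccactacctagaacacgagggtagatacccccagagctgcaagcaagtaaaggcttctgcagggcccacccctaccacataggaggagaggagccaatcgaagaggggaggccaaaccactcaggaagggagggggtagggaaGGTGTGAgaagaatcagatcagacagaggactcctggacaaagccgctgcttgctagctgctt
Klra1: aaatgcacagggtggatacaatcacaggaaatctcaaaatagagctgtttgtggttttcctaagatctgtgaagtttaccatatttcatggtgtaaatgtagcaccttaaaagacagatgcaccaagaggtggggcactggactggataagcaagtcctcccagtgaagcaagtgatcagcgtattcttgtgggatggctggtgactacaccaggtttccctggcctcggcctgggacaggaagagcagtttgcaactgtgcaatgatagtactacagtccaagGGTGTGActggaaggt
Plac8: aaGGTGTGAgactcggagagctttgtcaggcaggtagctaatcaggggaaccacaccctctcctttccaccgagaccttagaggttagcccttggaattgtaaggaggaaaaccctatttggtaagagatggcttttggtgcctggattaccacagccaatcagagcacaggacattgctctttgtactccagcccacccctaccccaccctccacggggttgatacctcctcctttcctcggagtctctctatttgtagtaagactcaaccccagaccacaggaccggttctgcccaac

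Genes of thymic exit, homing and adhesion rose in 12 of 17 tested genes and fell in 1, with a median of 1.13. *Cxcr3*, the receptor for interferon-induced chemokines, stood at 150.4, 168, 125.8 and 122 CPM in T-bet high and 11.9, 35.9, 34.1 and 27.4 CPM in T-bet int cells, a change of 2.33 ± 0.35 (SE, n = 4 libraries, limma adjusted p = 1.17e-05). *Cxcr6* changed by 1.62 ± 0.31 (SE, limma adjusted p = 5.44e-04) and *Cd44*, the hyaluronan receptor, by 1.93 ± 0.29 (SE, limma adjusted p = 1.66e-05). The exception was *Emb*, which encodes the adhesion protein embigin, with a change of -1.07 ± 0.28 (SE, limma adjusted p = 0.0144). In the cells with under 30% *Gm10800*, 8 of the 17 were called higher. The limma call ended for *Emb* without library 1 or 2 (adjusted p = 0.255 and 0.0797).

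Among S100, annexin and cytoskeleton genes, 6 of 22 tested rose and 1 fell, with a median of 0.29. *S100a6* stood at 1145, 1518, 1132 and 1141 against 439, 382, 438 and 535 CPM and changed by 1.51 ± 0.12 (SE, n = 4 libraries, limma adjusted p = 1.79e-11). *S100a4* changed by 2.22 ± 0.19 (SE, limma adjusted p = 3.00e-11), *Ahnak* by 1.27 ± 0.18 (SE, limma adjusted p = 6.71e-06) and *Myo1f*, an unconventional myosin, by 1.95 ± 0.24 (SE, limma adjusted p = 2.30e-07). *Cfl1*, which encodes cofilin, fell by 0.26 on the log2 scale (limma adjusted p = 0.0279). No call by limma remained for *Cfl1* without library 1, 2 or 3 or in the cells with under 30% *Gm10800* (adjusted p = 0.0983, 0.329, 0.35 and 0.0764). With median-of-ratios size factors 12 of the 22 were called higher and none lower.

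MHC class I and peptide-loading genes, a list that also holds 2 Ly6 genes, rose in 4 of 12 tested genes with none called lower and a median of 0.39. *Ly6c2*, which encodes the surface protein Ly6C, had the smallest p-value of all genes, at 1368, 780.1, 476 and 1291 against 178, 75.0, 79.6 and 75.4 CPM, a change of 3.19 ± 0.19 (SE, n = 4 libraries, limma adjusted p = 6.00e-15). The class I heavy chain *H2-D1* changed by 1.11 ± 0.11 (SE, limma adjusted p = 5.43e-09), its light chain *B2m* by 0.62 ± 0.08 (SE, limma adjusted p = 3.59e-07) and *Ly6e* by 0.55 ± 0.10 (SE, limma adjusted p = 1.90e-04). No value is given for *H2-K1*, which is not analysed here. Of 18 interferon-stimulated genes tested, 3 rose and none fell, with a median of 0.50: *Gbp7* by 1.20 ± 0.24 (SE, limma adjusted p = 9.64e-04), *Ifit3* by 1.81 ± 0.51 (SE, limma adjusted p = 0.025) and *Ifitm1* by 4.36 ± 1.23 (SE, limma adjusted p = 0.0255). By limma, no call was made for *Ly6e* without library 1 (adjusted p = 0.0632), *Gbp7* without library 1 (adjusted p = 0.0561) and *Ifit3* without library 3 (adjusted p = 0.116). It was also lost, by limma, for *Ifitm1* without library 1, 3 or 4 (adjusted p = 0.11, 0.109 and 0.053). Too few transcripts were left to test *Ifitm1* without library 2 and *Ifit3* without library 1, 2 or 4 or in the cells with under 30% *Gm10800*. In both lists all but 1 of the tested genes had a positive change, against 2027 of 4716 over all genes.

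The transcription factors split. Of 19 tested, 3 rose (*Tbx21*, *Id2* and *Hopx*) and 5 fell (*Lef1*, *Id3*, *Tcf7*, *Tox* and *Ikzf2*), with a median of -0.23, or -0.14 in the cells with under 30% *Gm10800*. *Id3*, the Id protein of immature and agonist-selected thymocytes, stood at 146, 89.0, 54.7 and 56.1 CPM in T-bet high and 384, 300.04, 244 and 226 CPM in T-bet int cells, a change of -1.69 ± 0.21 (SE, n = 4 libraries, limma adjusted p = 4.60e-07). *Id2* and *Id3* thus moved in opposite directions, each in 4 of 4 libraries. *Tcf7* and *Lef1* encode partner factors of Wnt signalling that act in thymocytes and memory T cells. *Tcf7* stood at 97.0, 89.0, 32.8 and 112 against 245, 209, 289.9 and 206 CPM, with a change of -1.53 ± 0.25 (SE, n = 4 libraries, limma adjusted p = 6.13e-05). *Lef1* stood at 53.4, 83.8, 60.1 and 93.5 against 245, 183, 239 and 329 CPM, with a change of -1.72 ± 0.23 (SE, n = 4 libraries, limma adjusted p = 2.52e-06). *Tox*, needed for the CD4 lineage in the thymus, changed by -1.50 ± 0.29 (SE, limma adjusted p = 6.99e-04), and *Ikzf2*, which encodes Helios, by -0.99 ± 0.16 (SE, limma adjusted p = 3.81e-05). *Hopx* rose by 1.63 ± 0.29 (SE, limma adjusted p = 1.57e-04). By limma, the call was lost for *Hopx* in the cells with under 30% *Gm10800* (adjusted p = 0.321). Eomes, the other T-box factor of NK cells, had 10 transcripts in T-bet high and 2 in T-bet int cells, too few to be tested.

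Of 12 genes of agonist selection and the T cell receptor response tested, 4 fell and 8 did not pass the test, with none called higher and a median of -0.88. *Pdcd1*, which encodes the inhibitory receptor PD-1 and marks early IELPs, stood at 24.3, 10.5, 21.9 and 9.35 CPM in T-bet high against 158, 124, 119 and 61.7 CPM in T-bet int cells, a change of -2.61 ± 0.48 (SE, n = 4 libraries, limma adjusted p = 2.85e-04). After thinning, 2 of 112 T-bet high and 23 of 116 T-bet int cells had a *Pdcd1* transcript. *Icos*, a co-stimulatory receptor, changed by -0.89 ± 0.20 (SE, limma adjusted p = 0.00268), and the remaining 2 of the 4 were *Tox* and *Ikzf2*. *Nr4a1*, which encodes the immediate response factor Nur77, did not pass the test, with 53.4, 26.2, 38.3 and 56.1 against 142, 35.9, 73.9 and 47.99 CPM and a change of -0.88 ± 0.32 (SE, limma adjusted p = 0.101). The limma call ended for *Icos* without library 2 or 3 (adjusted p = 0.161 and 0.082). Of the 7 checkpoint and co-stimulation genes tested, *Pdcd1* and *Icos* were called lower and none higher, with a median of -0.36, and 3 were lower with a median of -0.91 in the cells with under 30% *Gm10800*. *Cd24a*, a surface marker of immature thymocytes, had too few transcripts to be tested, 1 in T-bet high and 6 in T-bet int cells.

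The largest falls outside these lists were *Igfbp4*, *Nrgn*, *Hivep3*, *Lmo4*, *Marcksl1* and *Cdca7*. *Igfbp4*, a binding protein of insulin-like growth factors, stood at 4.85, 10.5, 16.4 and 9.35 against 399, 137, 131 and 363 CPM, a change of -4.32 ± 0.79 (SE, n = 4 libraries, limma adjusted p = 2.68e-04). *Nrgn*, the calmodulin-binding protein neurogranin, stood at 38.8, 57.6, 54.7 and 9.35 against 391, 219, 301 and 349.6 CPM, a change of -2.65 ± 0.31 (SE, n = 4 libraries, limma adjusted p = 1.16e-07). In both genes every T-bet int value lay above every T-bet high value. *Hivep3*, a zinc-finger factor, changed by -2.24 ± 0.27 (SE, limma adjusted p = 2.75e-07), *Lmo4*, a LIM-only protein, by -1.81 ± 0.32 (SE, limma adjusted p = 1.57e-04), *Marcksl1* by -1.63 ± 0.40 (SE, limma adjusted p = 0.00759) and *Cdca7* by -1.37 ± 0.30 (SE, limma adjusted p = 0.00289). No call by limma remained for *Marcksl1* without library 1, 2, 3 or 4 or in the cells with under 30% *Gm10800* (adjusted p = 0.0627, 0.0585, 0.14, 0.0513 and 0.146) and *Cdca7* without library 2 (adjusted p = 0.051). *Plac8* fell furthest among the NKT marker genes, with a log2 change of -3.20 (SE 0.67, limma adjusted p = 0.00144), from 170.0, 159.8, 108 and 171 to 14.6, 20.9, 10.9 and 0 CPM.

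Genes of cytokine and antigen receptor signalling are given beside the shares of all genes tested, 6.26% called and 3.39% called higher. In the interleukin-2 and interleukin-15 axis 0 of 10 tested genes were called by limma (2 at an unadjusted p under 0.05), with a median of 0.22, and 1 was called higher with median-of-ratios size factors. *Il2rb*, which encodes CD122, stood at 344, 419, 323 and 271 against 285, 313, 216 and 158 CPM, a change of 0.46 ± 0.15 (SE, limma adjusted p = 0.0715). *Bcl2*, the survival factor downstream of these cytokines, had a change of -0.10 ± 0.18 (SE, limma adjusted p = 0.812). Of 18 CD3 and proximal T cell receptor genes, *Cd2* (0.80 ± 0.20, limma adjusted p = 0.009) and *Cd3e* (0.56 ± 0.15, limma adjusted p = 0.0163) rose and none fell, with a median of 0.08 that turned to -0.00 with total transcripts alone. By limma, no call was made for *Cd2* without library 2 or in the cells with under 30% *Gm10800* (adjusted p = 0.151 and 0.181) and *Cd3e* without library 1, 2 or 4 or in the cells with under 30% *Gm10800* (adjusted p = 0.162, 0.0904, 0.0809 and 0.0764). None of 8 TGF-β receptor and Smad genes was called by limma (1 at an unadjusted p under 0.05), with a median of 0.24 that turned to -0.20 in the cells with under 30% *Gm10800*, and of 7 survival and death genes *Birc5* alone was.

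Among genes of growth, those called were lower. Over all 4716 genes tested, 295 were called (6.26%), 135 of them lower (2.86%). Of 33 translation factors tested, 4 fell and none rose, with a median of -0.25, and 29 did not pass the test. *Eif5a*, an elongation factor, stood at 893, 738, 897 and 748 against 1447, 1556, 1182 and 1152 CPM, a change of -0.72 ± 0.10 (SE, n = 4 libraries, limma adjusted p = 6.71e-06), and *Eif4a1*, *Eef1b2* and *Pabpc1* changed by -0.60, -0.37 and -0.24. Of 13 glycolysis genes 3 fell and none rose, with a median of -0.30: *Ldha* by -0.71 ± 0.11 (SE, limma adjusted p = 1.20e-05), *Pkm* by -0.54 ± 0.12 (SE, limma adjusted p = 0.00229) and *Pgam1* by -0.82 ± 0.17 (SE, limma adjusted p = 9.79e-04). Of 11 genes of the *Myc* network 3 fell and none rose, with a median of -0.46, and these were *Npm1* (-0.65 ± 0.09, limma adjusted p = 2.30e-06), *Ncl* (-0.46 ± 0.12, limma adjusted p = 0.0164) and *Nop56* (-0.56 ± 0.16, limma adjusted p = 0.029). *Myc* itself did not pass the test, at 63.1, 99.5, 38.3 and 56.1 against 59.3, 68.5, 114 and 41.1 CPM, a change of -0.10 ± 0.31 (SE, limma adjusted p = 0.903), and its sign turned without library 3 (0.35) and in the cells with under 30% *Gm10800* (0.09). Of 86 tested genes named *Rpl* or *Rps*, here called ribosomal, 12 fell and none rose, with a median of -0.13, near the -0.08 of all genes. This list was filled by name, so it also holds genes that encode no ribosomal protein, such as *Rps6kb2*. Among those that fell were *Rps27l* (-0.84), *Rpl22l1* (-0.51) and *Rps26* (-0.46). Of 78 nuclear genes of oxidative phosphorylation 5 fell and none rose, with a median of -0.21, among them *Ndufab1* (-0.87 ± 0.23, limma adjusted p = 0.0161), *Ndufv2* (-0.83 ± 0.24, limma adjusted p = 0.0308), *Atp5g1* (-0.66 ± 0.18, limma adjusted p = 0.0192) and *Uqcrq* (-0.70 ± 0.21, limma adjusted p = 0.0394), and none was called in the cells with under 30% *Gm10800*. Each of these 4 also lost its call without 3 or more of the 4 libraries in turn (limma adjusted p = 0.0574 to 0.244). Without any 1 library, *Eif5a*, *Ldha*, *Npm1* and *Rps26* kept their calls, while *Eif4a1*, *Eef1b2*, *Pabpc1*, *Pkm*, *Pgam1*, *Ncl*, *Nop56*, *Rps27l* and *Rpl22l1* each lost theirs without library 1, 2, 3 or 4 or more than 1 of these (limma adjusted p = 0.0522 to 0.5). These counts moved with the scaling, since 4 ribosomal genes, 2 translation factors and 1 gene of the *Myc* network fell with median-of-ratios size factors and 27, 5 and 5 with total transcripts alone, and 4, 2 and 1 did in the cells with under 30% *Gm10800*, as did 2 glycolysis genes. Among those cells the limma call ended for *Eif4a1*, *Pabpc1*, *Pkm*, *Ncl*, *Nop56* and *Rps27l* (adjusted p = 0.0909, 0.0883, 0.112, 0.738, 0.376 and 0.0814), and the median of the *Myc* network was -0.24.

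The cell cycle genes moved both ways. Of 33 tested, 7 fell and 4 rose, with a median of -0.23. The 7 were the helicase subunits of DNA replication *Mcm2* (-0.84), *Mcm3* (-0.87), *Mcm5* (-0.77), *Mcm6* (-0.96) and *Mcm7* (-0.90), the replication clamp *Pcna* (-0.70) and the kinase *Cdk4* (-0.68 ± 0.15, limma adjusted p = 0.00301). The 4 were genes of mitosis, *Cenpf* (1.37 ± 0.34, limma adjusted p = 0.0103), *Ube2c* (0.96 ± 0.23, limma adjusted p = 0.00627), *Ccnb2* (0.91 ± 0.24, limma adjusted p = 0.0165) and *Birc5* (0.82 ± 0.25, limma adjusted p = 0.0387). *Mcm2*, *Mcm3*, *Mcm5*, *Mcm7* and *Pcna* were named after their values were seen. *Mki67*, the gene of the proliferation marker Ki-67, stood at 563, 408, 656 and 355 against 379.6, 571, 318 and 459 CPM, a change of 0.20 ± 0.17 (SE, limma adjusted p = 0.564), and *Top2a* had one of -0.13 ± 0.16 (SE, limma adjusted p = 0.707), so that neither passed the test. The split did not hold in the cells with under 30% *Gm10800*, where 7 genes rose and 2, *Mcm6* and *Mcm7*, fell, with a median of -0.14. *Mcm6* and *Mcm7* kept their calls without any 1 library. By limma, the call was lost for *Cenpf* without library 1 or 3 (adjusted p = 0.351 and 0.0616), *Ube2c* without library 1 or 3 (adjusted p = 0.153 and 0.0736) and *Ccnb2* without library 1, 2 or 3 (adjusted p = 0.0994, 0.273 and 0.0616). It was also lost, by limma, for *Birc5* without library 1, 2 or 3 (adjusted p = 0.522, 0.121 and 0.107) and *Cdk4* without library 1 or in the cells with under 30% *Gm10800* (adjusted p = 0.0574 and 0.0945).

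Markers of other cell types are given as summed CPM of the plain sums, without the scaling by trimmed means. Of 7 markers of CD4+CD8+ double positive thymocytes and 3 of regulatory T cells none reached the minimum, and their summed levels were 5.5 to 41.7 and 0 to 5 CPM in T-bet high and 0 to 17.1 and 0 to 6.7 CPM in T-bet int cells. Markers of γδ T cells summed to 250 to 616 CPM in T-bet high and 399 to 709 CPM in T-bet int cells, with 2 of 7 tested, 0 called by limma (0 at an unadjusted p under 0.05) and 3 *Trdc* transcripts in each population. B cell markers summed to 83.4 to 212 and 56.9 to 214 CPM, and myeloid markers to 25 to 44 and 12.7 to 66.9 CPM. Of 6 NKT markers 4 were tested and *Plac8*, *Icos* and *Slamf6* (-1.63 ± 0.50, limma adjusted p = 0.0405) fell, the list summed to 165 to 378 CPM in T-bet high and 664 to 703 CPM in T-bet int cells, and *Zbtb16*, the defining factor of NKT cells, had 11 and 42 transcripts (log2 change -1.47 ± 0.57, limma adjusted p = 0.126). The invariant NKT receptor segment *Trav11* was at 0 in all 8 sums. Transcripts were primed at the poly-A tail, far from this segment, so its 0 cannot tell whether NKT cells were present. NK cell markers summed to 509 to 877 CPM in T-bet high and 209 to 375 CPM in T-bet int cells, mostly *Fcer1g*, with 3 and 0 transcripts of *Ncr1*, a defining NK receptor. T cell markers, among them *Cd3e*, summed to 3153 to 3482 and 3106 to 3888 CPM. The limma call ended for *Slamf6* without library 1, 2, 3 or 4 or in the cells with under 30% *Gm10800* (adjusted p = 0.176, 0.13, 0.245, 0.164 and 0.112). The cells were sorted on TCRβ, and the study used CD4 and NK1.1 to leave out NKT cells. The purity of these libraries was not examined here, and the part of NK or NKT cells in the results was not tested.

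A score separated most cells of a library that had no part in building it. The genes called with 3 libraries were used to score every cell of the fourth, as the mean log2 level of the higher less that of the lower genes, after scaling each cell to 2000 transcripts and adding 1. A T-bet high cell scored above a T-bet int cell in 86.1, 90.3, 86.0 and 79.3% of all pairs in libraries 1 to 4, a mean of 85.4% ± 4.52 (SD, n = 4). Without *Tbx21*, *Klrk1*, *Klrb1c* and *Id2* the mean was 85.3%, and without predicted genes 89.6%. Over the 4 libraries 9 of 116 T-bet int cells scored above the median T-bet high cell of their library, and 5 of 112 T-bet high cells below the median T-bet int cell. The cells come from the same mouse, so the score says nothing of other mice. In every library T-bet high cells also had the higher share of *Gm10800* and fewer transcripts outside predicted genes. A left-out library shares these differences, so scoring it cannot set them apart from the populations. The score was not run on the cells with little *Gm10800* alone, and the part of these differences in the separation was not tested.

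**Figure D2:**
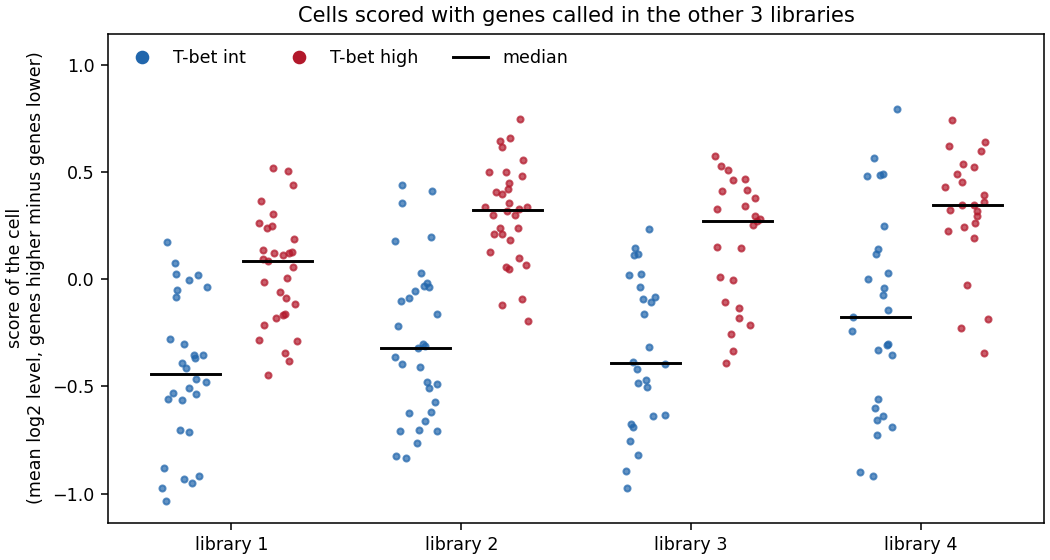
Score of each cell (vertical axis, mean log2 level of the higher less the lower genes, chosen in the other 3 libraries) for the T-bet high and int cells of the 4 C-myc fl/fl libraries, 1 point per cell and a line at each median. The medians of T-bet high cells, 0.09, 0.32, 0.27 and 0.34 in libraries 1 to 4, lie above those of T-bet int cells, -0.44, -0.32, -0.39 and -0.18.

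The T-bet+ cells of the TBGR mouse, 147 T-bet high and 171 T-bet int, show which of these changes differed in size or direction between the mice. Their libraries hold 1 population each, so that population and library cannot be told apart there. Age, genotype, mouse and sequencing run cannot be told apart between the mice. *Gm10800* took 19.4 to 38.5% of the C-myc fl/fl sums and 7.02 to 14.1% of the TBGR sums, and its part in the differences between the mice was not tested. For values set side by side between the mice, CPM are parts of the plain sums, without the scaling by trimmed means. The ratio of T-bet high to T-bet int cells differed for 211 of 7971 genes tested (2.65%), higher in the C-myc fl/fl mouse for 161 (2.02%) and lower for 50 (0.627%), by the limma interaction term. Of the 295 genes called in the C-myc fl/fl mouse, 251 had a change of the same sign in the TBGR mouse and 45 differed between the mice. The second T-bet high library of the TBGR mouse stood apart, with 14.1% of *Gm10800* transcripts against 7.02 to 8.41% in the other 3 sums and 278 against 36 CPM of double positive markers in the first. Its empty barcodes held a median of 105.5 and at most 480 transcripts, against medians of 14.5 to 20 in the other 3 libraries. Without it 363 genes differed, 190 higher and 173 lower, and without the first T-bet high library 115 did, 51 higher and 64 lower. The lower count was 34, 8, 18 or 25 without C-myc fl/fl library 1, 2, 3 or 4, with 144, 138, 155 or 165 genes in all, and 23 or 28 without T-bet int library 1 or 2 of the TBGR mouse.

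Proliferation genes made up most of the largest differences. The summed cell cycle level was 3032 and 4059 CPM in the T-bet high and 8628 and 8930 CPM in the T-bet int libraries of the TBGR mouse, against 5631 to 9347 and 7845 to 9563 CPM in the C-myc fl/fl mouse, and of the 33 genes tested within the C-myc fl/fl mouse 16 had a higher ratio there and 1 a lower one. The median change of the list was -0.23 in the C-myc fl/fl and -1.80 in the TBGR mouse. *Mki67* was at 4.20 and 94.2 CPM in the T-bet high and 642 and 559 CPM in the T-bet int libraries of the TBGR mouse, and at 317 to 660.0 and 348 to 586 CPM in the C-myc fl/fl mouse, a difference of log2 ratios of 5.62 ± 0.67 (SE, limma adjusted p = 4.10e-06). This gene was thus low in the TBGR mouse among T-bet high cells and not so in the C-myc fl/fl mouse. For *Top2a*, the topoisomerase of dividing cells, the difference was 5.74 ± 0.70 (SE, limma adjusted p = 5.70e-06). The spindle and centromere genes *Aspm*, *Ube2c*, *Cenpe* and *Tpx2* differed by 6.38, 6.08, 5.97 and 5.81. In the TBGR mouse *Aspm* was at 0 in both T-bet high libraries, at least 11.1-fold lower than in its T-bet int libraries (floor of 3 transcripts over the group), so its fitted difference depends on the offset. The difference was no longer called for *Aspm* without TBGR T-bet high library 1 (limma adjusted p = 0.0513) and *Cenpe* without TBGR T-bet high library 1 (limma adjusted p = 0.063).

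**Figure D3:**
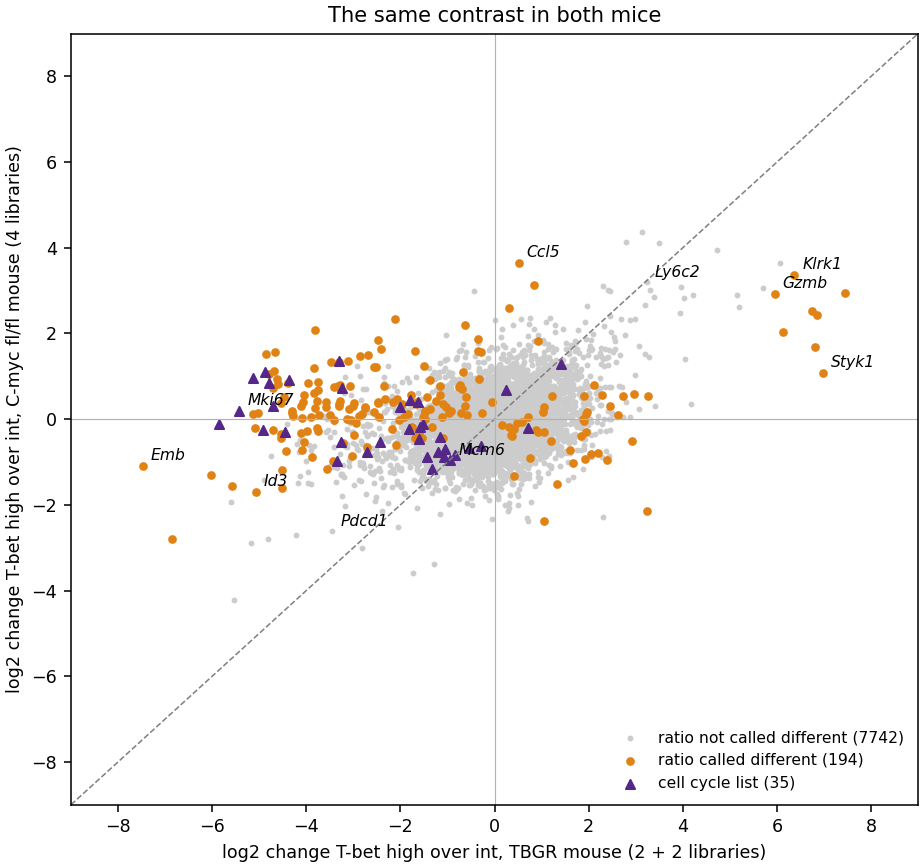
Log2 change from T-bet int to T-bet high cells in the TBGR mouse (horizontal axis) and the C-myc fl/fl mouse (vertical axis) for 7971 genes, with 194 called differences outside the cell cycle list and the 35 genes of that list, 17 of them called, marked. Mki67 lies near 0 on the vertical axis (0.20) and far below 0 on the horizontal one (-5.42), and fitted values of genes at 0 in a TBGR population depend on the offset.

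Other genes of T-bet high cells also differed in size. In the TBGR mouse *Emb* was at 0 in both T-bet high libraries, at least 66.9-fold lower than in T-bet int cells, with a fitted difference of 6.38 (limma adjusted p = 2.07e-04). In the C-myc fl/fl mouse T-bet high cells held 25.0 to 126.5 CPM of *Emb*, above both T-bet high values in the TBGR mouse. *Styk1*, which encodes a kinase-like protein of NK cells, went the other way, at 195 and 116 against 0 and 1.60 CPM in the TBGR mouse and with 4 and 2 transcripts in the C-myc fl/fl mouse, a difference of -5.91 ± 1.15 (SE, limma adjusted p = 0.00241). The difference was no longer called for *Emb* without TBGR T-bet high library 1 (limma adjusted p = 0.0766) and *Styk1* without TBGR T-bet int library 1 (limma adjusted p = 0.0594).

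Among the effector genes of the T-bet high cells, *Klrk1* and *Gzmb* rose less in the C-myc fl/fl mouse, and *Ccl5* and *Klrd1* rose more. *Klrk1* was at 541 and 582 CPM in the T-bet high and 3.0 and 12.6 CPM in the T-bet int libraries of the TBGR mouse, against 58.4 to 260.5 and 0 to 43.5 CPM in the C-myc fl/fl mouse, a difference of -3.01 ± 0.76 (SE, limma adjusted p = 0.0237). *Gzmb* differed by -3.02 ± 0.58 (SE, limma adjusted p = 0.0021). The T-bet high levels of *Gzmb* overlapped between the mice, at 929.5 to 1243 CPM against 1064 and 766 CPM, and the T-bet int levels did not, at 56.9 to 317 CPM against 10.6 and 22.1 CPM. *Ccl5* differed by 3.13 ± 0.41 (SE, limma adjusted p = 1.47e-05), with T-bet int levels of 369 and 314 CPM in the TBGR and 12.4 to 93.7 CPM in the C-myc fl/fl mouse. *Klrd1* differed by 2.29 ± 0.34 (SE, limma adjusted p = 9.35e-05), with T-bet int levels of 330.1 and 309.7 CPM in the TBGR and 21.4 to 50.2 CPM in the C-myc fl/fl mouse. Of the falls, that of *Id3* was smaller in the C-myc fl/fl mouse by 3.38 ± 0.68 (SE, limma adjusted p = 0.00312) and that of *Nrgn* by 4.05 ± 0.88 (SE, limma adjusted p = 0.00687). The differences of *Tbx21* (0.04 ± 0.65) and *Id2* (-0.49 ± 0.26) did not pass the test (limma adjusted p = 0.99 and 0.438). The difference was no longer called for *Klrk1* without C-myc fl/fl library 2 (limma adjusted p = 0.424), *Klrk1* without TBGR T-bet int library 1 or 2 (limma adjusted p = 0.182 and 0.0503) and *Klrk1* in the cells with under 30% *Gm10800* (limma adjusted p = 0.118). Nor was it for *Id3* without TBGR T-bet high library 1 (limma adjusted p = 0.164) and *Nrgn* without TBGR T-bet high library 1 (limma adjusted p = 0.304).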

How the data were processed

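Reads were processed by the authors with bcl2fastq 2.17.1.14 and bwa 0.6.2-r126 against mouse GENCODE transcripts, with merged isoforms, discarded multi-mapping reads and UMIs of 6 bases. The deposited count tables hold estimated transcripts per gene and cell, that is UMI counts corrected for UMIs drawn more than once, without normalization. All 5685 distinct values checked were ones this correction can give. GEO's labels name the genotype and library, and the well descriptions deposited with the tables name the population of each cell.

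Cells with at least 2000 transcripts without mitochondrial genes and spike-ins were kept. Cells were sorted singly and no doublet caller was run. Values were summed per library and population and rounded to whole transcripts. Genes with at least 40 transcripts over the sums were tested with limma 3.58.1 in R 4.3.3 on log2 CPM (offset 0.5) with voom weights and TMM scaling (trimmed fractions 0.3 of ratios and 0.05 of levels), computed without edgeR. Each library was a block, because both populations were pooled in every library, and the block is the pairing. P-values were adjusted by Benjamini-Hochberg. A count test was planned and was not run, although the sums of estimated transcripts, rounded to whole transcripts, could have entered one. The TBGR mouse entered a second fit with an interaction term for population and mouse.

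On simulated counts with changed genes, the first fit recovered 33% of 97 genes changed 2-fold and 93% of 100 changed 4-fold with 3 false calls among 4707 genes, and the second 1% of 98 and 23.7% of 97 with 0 false calls among 7951 genes.

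Named in the text are the 12 largest rises and falls among called genes with at least 100 transcripts and 1 direction in 4 of 4 libraries (predicted genes left out), genes that the study names or sorts on, up to 4 members of each list and those against its direction, and the 10 largest differences between the mice. *Nkg7*, *Zbtb16*, *Klrc1*, *Klrc2*, Eomes, Prf1 and markers of other cell types were named beyond this rule after their values were seen. Of the genes that the rule picked, 3 are not reported here. Members and gene lists were chosen with earlier results of these data known. Shares of cells were taken after thinning each cell to 2000 transcripts. Other analyses used Python 3.11.15 with numpy 2.4.6 and pandas 2.3.3. Sequences are from RefSeq. Intervals were not computed, and the number of transcripts limits the precision of each level.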

Additional observations from a re-analysis of the deposited data

Results flagged for a closer look

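Of 96 groups of 4 values tested for a value far from the others, 5 had one, and chance gives about 1 in 20. The log2 change of *Il18rap* was 0.74 in library 4 and 3.11 to 3.53 in libraries 1 to 3. That of *Cdca7* was -2.83 in library 4 against -1.42 to -1.19 in the others, that of *Cd7* was 1.49 in 1 library against 0.58 to 0.73, and that of *Uqcrq* was -1.98 in 1 library against -0.58 to -0.37. In T-bet int cells of library 1, 11.4% of transcripts were mitochondrial against 9.25 to 9.60% in the other T-bet int sums.

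The ratio of T-bet high to T-bet int cells differed between the C-myc fl/fl and the TBGR mouse, by the interaction term of limma, for 26 of the genes named here. In log2 units, the ratio was higher in the C-myc fl/fl mouse for the NK receptor genes *Klra7* (2.30), *Klra1* (2.22), *Klrd1* (2.29) and *Klrb1a* (4.04), for *Ccl5* (3.13), *Fcer1g* (1.76) and *Cd7* (1.26), for *Emb* (6.38) and *S100a4* (2.84), and for *Nrgn* (4.05), *Id3* (3.38), *Ikzf2* (2.45) and *Slamf6* (2.90). It was also higher for the proliferation genes *Birc5* (5.62), *Cenpf* (4.65), *Ube2c* (6.08), *Ccnb2* (5.27), *Aspm* (6.38), *Cenpe* (5.97), *Tpx2* (5.81), *Top2a* (5.74) and *Mki67* (5.62). It was lower for *Gzmb* (-3.02), *Klrk1* (-3.01), *Styk1* (-5.91) and *Ly6e* (-0.68). Some of these genes changed in opposite directions in the mice. *S100a4*, *Fcer1g*, *Klra1* and *Cd7*, which rose in the C-myc fl/fl mouse, had changes of -0.64, -0.67, -0.345 and -0.33 in the TBGR mouse. For *Cenpf*, *Ube2c*, *Ccnb2* and *Birc5*, which rose in the C-myc fl/fl mouse as well, the TBGR changes were -3.30, -5.12, -4.36 and -4.78. With any 1 library left out, 14 of these 26 kept their call. The difference was no longer called for *Klra7* without C-myc fl/fl library 1 (limma adjusted p = 0.0597), *Klrb1a* without TBGR T-bet high library 1 (limma adjusted p = 0.188) and *Cd7* without C-myc fl/fl library 2 (limma adjusted p = 0.0965). The same held for *Slamf6* without C-myc fl/fl library 1, 2 or 4 (limma adjusted p = 0.0794, 0.164 and 0.0884), *Slamf6* without TBGR T-bet high library 1 (limma adjusted p = 0.761) and *Slamf6* without TBGR T-bet int library 1 (limma adjusted p = 0.0687). Nor was it for *Slamf6* in the cells with under 30% *Gm10800* (limma adjusted p = 0.0885), *Ly6e* without C-myc fl/fl library 2, 3 or 4 (limma adjusted p = 0.222, 0.184 and 0.0749) and *Ly6e* without TBGR T-bet high library 1 (limma adjusted p = 0.156). Nor was it for *Ly6e* without TBGR T-bet int library 1 (limma adjusted p = 0.16) and *Ly6e* in the cells with under 30% *Gm10800* (limma adjusted p = 0.129).

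Outside the cells, the most transcripts at a barcode described as empty was 72 in the C-myc fl/fl libraries, with medians of 11 to 18.5 per library. In the second T-bet high library of the TBGR mouse it was 480, with a median of 105.5.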

How the results depend on the processing

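The count of genes that differed between the T-bet+ populations moved most with the filter and the block. Against 295 genes (160 higher, 135 lower), no filter on low values gave 5 (3 and 2) with 18617 genes tested, a fit without the library block 73 (46 and 27), cells thinned to 2000 transcripts 105 (66 and 39), and cells with under 30% *Gm10800* 163 (102 and 61). The lower count was 83 with median-of-ratios size factors, 241 with total transcripts alone and 83 without predicted genes. Leaving out 1 library gave 136 to 198 genes, 77 to 111 higher and 43 to 87 lower. Of 79 named calls, 41 were kept without any 1 library and 27 under all alternatives other than the missing filter. Against 211 genes that differed between the mice (161 higher, 50 lower), no filter gave 324 with 118 lower, a fit without the library block 141 with 21 lower, limma with a trend and no weights 79 (73 and 6) and thinned cells 54 (47 and 7). Leaving out 1 library gave 115 to 363, 51 to 190 higher and 8 to 173 lower, with both extremes of the total from T-bet high libraries in the TBGR mouse. With 1 library left out the log2 change ran from -0.442 to 0.354 for *Myc*, from -0.237 to 0.119 for *Bcl2*, from -0.319 to 0.158 for *Top2a* and from -0.069 to 0.53 for *Mki67*, none of them called, and in the cells with under 30% *Gm10800* it was 0.093 for *Myc* and 0.0 for *Top2a*. The mean difference in transcripts per cell ran from -889 to 162 with 1 library left out, at 161.5 without library 1 and 47.0 without library 2. The causes were not tested. The limma fits with a trend, without predicted genes and of cells with under 30% *Gm10800* were chosen after seeing the data. DESeq2's Wald test and the edgeR fit were not run. On simulated counts 33% of 2-fold changes were recovered within the C-myc fl/fl mouse and 23.7% of 4-fold differences between the mice. In the simulation most changes of 2-fold in the first comparison and of 4-fold in the second were thus missed. Its counts had a single assumed spread for all genes and no effect of library, so the share missed in the real data is not known.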
